A study of Mus musculus with 2 samples.

Results

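Lymphatic endothelial nuclei were the nuclei of mouse heart that carried at least 3 summed UMIs (unique molecular identifiers, each standing for 1 captured RNA molecule) of the lymphatic genes Mmrn1, Reln, Flt4 and Ccl21a. The sum also had to be larger than each of 3 other sums, those of the endocardial genes Npr3, Nrg1, Plvap, Smoc1 and Sall1, of the capillary genes Aplnr, Timp4, Tcf15, C1qtnf9 and Btnl9, and of the fibroblast genes Pdgfra, Col1a1, Col3a1 and Dcn. Mitochondrial genes could hold at most 20% of the UMIs of a nucleus. Of 18164 barcodes in the series, 353 met the rule. They were 207 of 10197 control barcodes and 146 of 7967 PD-1 inhibitor barcodes. They are called members below.

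Lymphatic endothelium lines the vessels that drain fluid, lipid and immune cells from tissue and return them to the blood. Its identity depends on the transcription factor PROX1, and its growth on VEGF-C acting through the receptor VEGFR-3, which Flt4 encodes. In the heart, lymphatic vessels run in the outer wall and the muscle, and they clear fluid and leukocytes. Initial lymphatic capillaries carry the hyaluronan receptor LYVE1, whereas collecting vessels carry valves and less LYVE1.

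The hearts came from male C57BL/6 mice that were 8 weeks old when the experiment began. Mice of the PD-1 inhibitor group received an antibody against the immune checkpoint receptor PD-1 at 5 mg/kg by intraperitoneal injection on days 1 and 14 of a 28-day cycle, and control mice received PBS. Nuclei were isolated from heart tissue, and 1 library was made for each condition. The number of hearts behind a library is not given in the sources used here, so no value says how far hearts of a group differ, and differences between the libraries are given as values with no test.

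The libraries held 13177525 and 10875248 UMIs, and the lowest count in a nucleus was 500 in both. The mitochondrial limit removed 83 control and 15 PD-1 inhibitor nuclei and left 10114 and 7952. The libraries shared 48 barcodes, and 1 member carried such a barcode. Scrublet called 6 control and 5 PD-1 inhibitor members doublets. Members had 260426 UMIs in the control library, at a median of 1025 in a nucleus, and 206930 in the PD-1 inhibitor library, at a median of 1148.5. These totals set the counting error of every level below.

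The values of the rule genes describe how the members were chosen and were not tested. Levels are given as CPM, the summed UMIs of a gene scaled to one common total of UMIs for each group of nuclei. The level of Mmrn1, which encodes the extracellular protein multimerin-1, was 3713 CPM in control members and 4084 in PD-1 inhibitor members. It was 12.3 and 14.0 in all other nuclei. Reln, which encodes the secreted glycoprotein reelin, stood at 1889 and 1701 CPM in members, and Flt4 stood at 1820 and 1890. A UMI of Mmrn1 was found in 89.4% and 93.8% of the members. Ccl21a, which encodes a chemokine that draws dendritic cells into lymphatics, went against its place among the markers. It had 0 UMIs in the 207 control members, which allows a level of up to 11.5 CPM, and 3 UMIs in PD-1 inhibitor members.

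Ccl21a has near-identical copies in the mouse genome, and reads that fit several copies may have been lost in counting. Genes that were listed at 0 in every nucleus include Foxc2, a factor of lymphatic valves, and Cox4i1, a subunit of cytochrome c oxidase that all cells use, so a 0 in these files can be a failed estimate. Ccl21a was not at 0 in every nucleus, as PD-1 inhibitor members held UMIs of it, and the cause of its low count was not tested. The members were therefore held together by Mmrn1, Reln and Flt4. Of control members, 110 had UMIs of 3 rule genes, 67 of 2 and 30 of only 1. Of PD-1 inhibitor members, 2 had UMIs of all 4, 78 of 3, 54 of 2 and 12 of 1.

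Most members lay well above the threshold of the rule, as the plot of UMIs of the rule genes shows. The sum was 6 or more in 139 control and 110 PD-1 inhibitor members, with a median of 7 and 8 and a highest value of 47 and 43. Just inside the threshold, the sum was 3 in 30 and 15 members. Just outside it, 42 control and 19 PD-1 inhibitor nuclei had a sum of 2 that was larger than the other sums. A further 15 and 23 nuclei had a sum of 3 or more that another sum matched or passed, and the fibroblast sum did so in 10 and 19 of them.

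**Figure D1:**
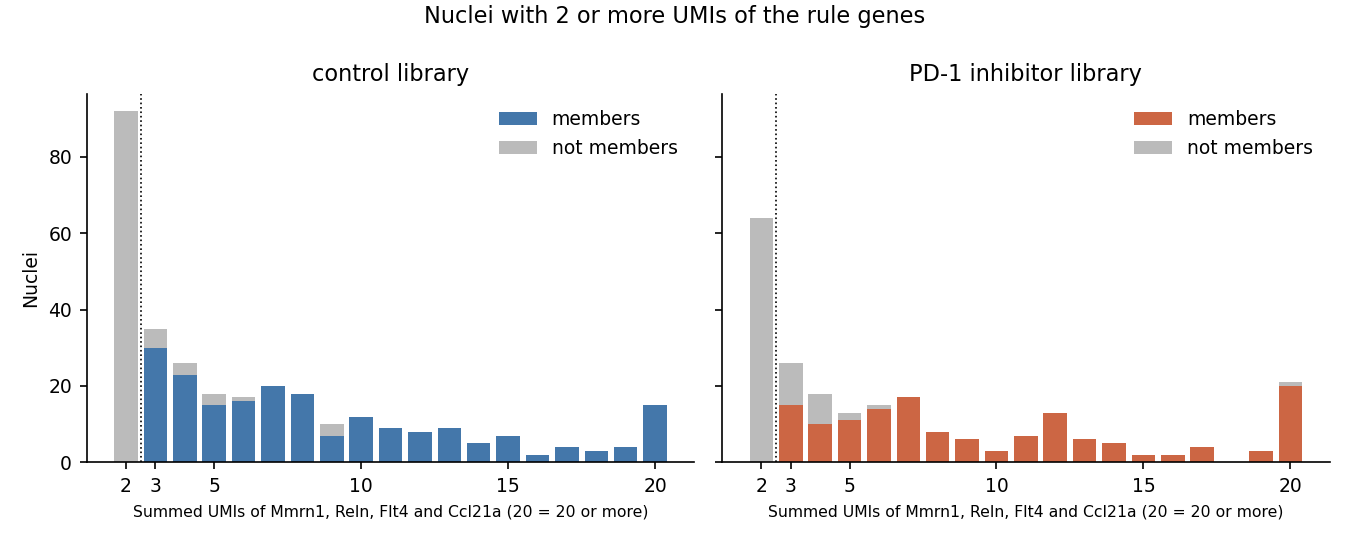
Number of nuclei (y axis) by the summed UMIs of Mmrn1, Reln, Flt4 and Ccl21a (x axis, from 2; the last bar holds 20 or more) in each library. Coloured bars are members, grey bars are nuclei that the rule left out, and the dotted line marks the minimum of 3 UMIs; most members have 6 UMIs or more.

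Prox1, the factor that sets lymphatic fate, was not part of the rule and separated the members from the other nuclei in both libraries. Prox1 (chromosome 1, 190118035 to 190170714 of GRCm38, minus strand) had 181 UMIs in control members and 140 in PD-1 inhibitor members. Its level was 695 CPM (exact Poisson 95% interval 597 to 804) in control members and 677 (569 to 798) in PD-1 inhibitor members. It was 47.5 and 42.4 in all other nuclei, so that members stood 14.6-fold (12.3 to 17.3) and 15.9-fold (13.1 to 19.3) higher. Intervals of levels, shares and ratios are at 95% throughout and cover counting error only.

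Across kinds of nuclei, Prox1 was also present outside the lymphatics. For this view all nuclei were clustered without any gene of the rule, and clusters were named from markers. In valve endothelial-like nuclei the level of Prox1 was 173 CPM (139 to 212) in controls and 155 (122 to 194) after PD-1 inhibitor. In cardiomyocyte-like nuclei it was 115 (103 to 129) and 108 (94.1 to 122). In endocardial-like nuclei it was 65.6 (51.7 to 81.9) and 54.0 (42.8 to 67.2). These 3 levels kept this order in both libraries, with the valve and cardiomyocyte intervals meeting in the PD-1 inhibitor library, and all lay below the intervals of the members. A UMI of Prox1 was found in 44.9% of control members (38.0 to 52.0) and 48.6% of PD-1 inhibitor members (40.3 to 57.0), against 4.36% and 4.01% of all other nuclei. After thinning each nucleus to 500 UMIs, the shares were 26.1% and 26.7% of members against 1.69% and 1.61% of all other nuclei.

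Lyve1, which encodes the hyaluronan receptor of lymphatic capillaries, reached higher levels than Prox1 and was less restricted. Members had a Lyve1 level of 1455 CPM (1312 to 1609) in controls and 2083 (1891 to 2289) after PD-1 inhibitor. Macrophage-like nuclei, whose resident subset carries LYVE1, had 421 (387 to 457) and 776 (723 to 832). Endocardial-like nuclei followed with 198 and 177. Pdpn, which encodes podoplanin, a membrane glycoprotein of lymphatic endothelium and of mesothelium, stood at 230 CPM (176 to 297) in control members and 329 (255 to 417) in PD-1 inhibitor members. Mesothelial-like nuclei had as much, at 326 and 363 CPM. No UMI of Prox1, Lyve1 or Pdpn was found in 52 control members (25.1%) and 24 PD-1 inhibitor members (16.4%).

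**Figure D2:**
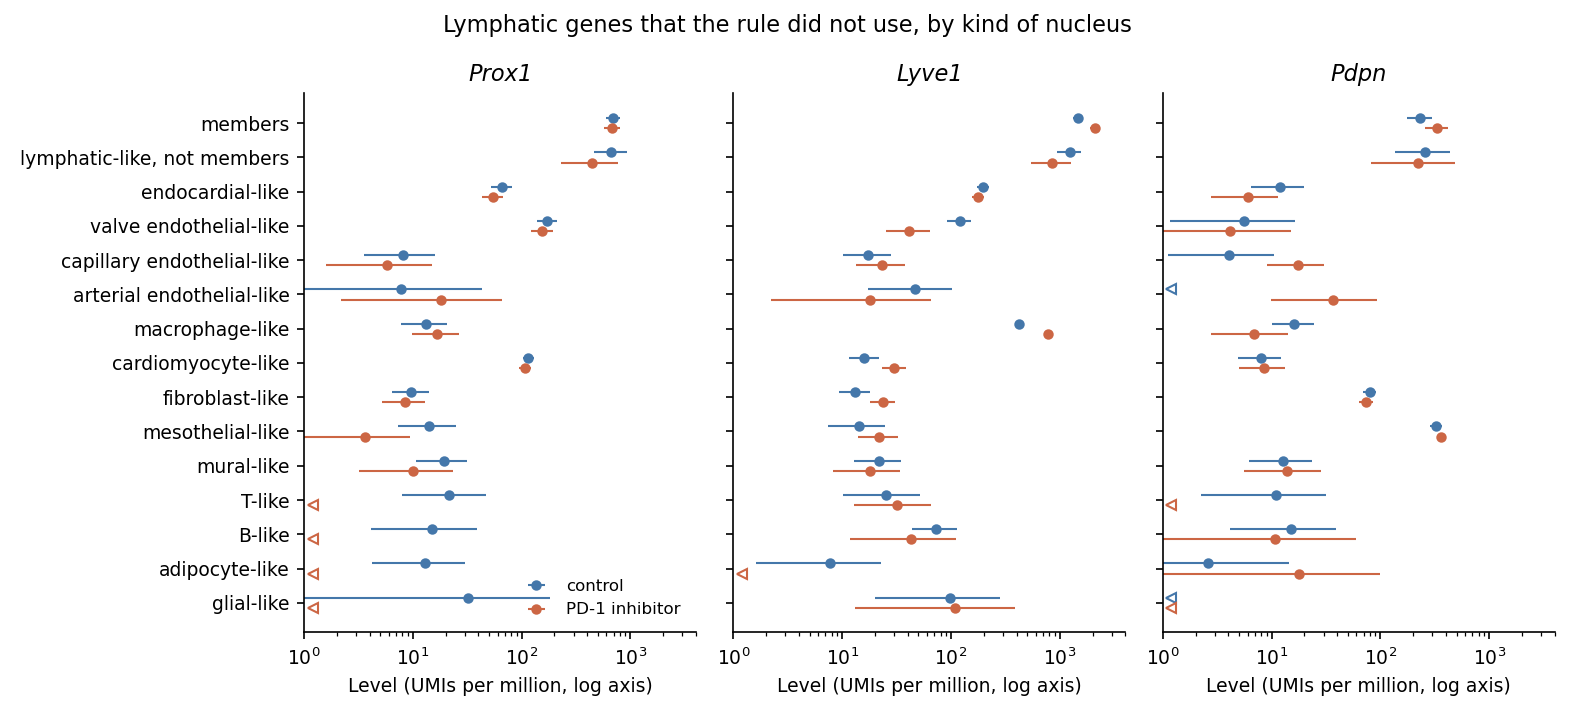
Levels of Prox1, Lyve1 and Pdpn (x axis, CPM, log scale) in the members and in named clusters of the other nuclei (y axis), by library. Points are summed levels, bars are exact 95% Poisson intervals, and open triangles at the left edge are sums of 0; members lie at 695 and 677 for Prox1, above the clusters of other cell types in both libraries.

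Clustering without the 18 rule genes placed 318 of the 353 members (90.1%) in 1 cluster. This cluster held 403 nuclei, of which 78.9% were members. Of the control members 184 of 207 lay in it, and of the PD-1 inhibitor members 134 of 146. Its leading genes by fold included Htr2b, Duox2, Tc2n, Tbx1, Lcn2 and Adgrg3, beside Mmrn1, Reln and Flt4, and it was called lymphatic endothelial-like because 4 of its 5 fixed markers, all but Ccl21a, were detected. The rule genes took no part in the clustering, but the same nuclei supply both, so the overlap is a description.

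The lymphatic-like cluster also held 57 control and 28 PD-1 inhibitor nuclei that the rule had left out. Of these, 13 and 7 had no UMI of a rule gene, and 39 and 14 had 1 or 2. They were shallower than the members, with medians of 731 and 780 UMIs. Their Prox1 level was 667 CPM (462 to 931) and 444 (230 to 776), which overlaps the intervals of the members. Members near the threshold fell in the cluster less often. Of members with a sum of 3, 21 of 30 control and 8 of 15 PD-1 inhibitor nuclei lay in it, and of those with 6 or more, 134 of 139 and 107 of 110 did.

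Members outside the cluster were scattered, and some carried genes of other cell types. Cardiomyocyte-like clusters held 7 control and 5 PD-1 inhibitor members, the capillary endothelial-like cluster held 4 and 3, and the glial-like cluster held 6 control members and none from the PD-1 inhibitor library. The summed level of the 7 cardiomyocyte markers was 19893 and 28176 CPM in members outside the cluster, and 2819 and 2745 inside it. The summed level of the 5 glial markers was 1321 CPM in control members outside the cluster, where it had 53 UMIs, and 0 in those inside it. For this reason, values in members of the lymphatic-like cluster only are given beside those of all members where they differ. That choice was made after seeing the data.

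Members differed from other endothelial nuclei of the same hearts in many genes outside the rule. UMIs were summed in each library over members, over 1875 endocardial-rule nuclei and over 396 capillary-rule nuclei, which were chosen by the other sums of the rule in the same way. The members were compared with the mean of both other kinds by edgeR's quasi-likelihood test, with the library as a block and Benjamini-Hochberg adjustment over 10726 genes. At an adjusted p under 0.05, 741 genes were higher in the members, 6.91% of those tested, and 537 were lower, 5.01%. Of the 1278 genes called, 1274 had the same sign in both libraries, which calling on these same libraries largely requires. The test rests on 6 sums from 2 libraries. With the library as a block, the spread it measures is how far differences between kinds of nuclei vary between these libraries. The libraries differ in treatment, so this spread also holds any effect of treatment on those differences. It does not measure how far hearts of a group differ. DESeq2 on the same sums called 403 genes higher and 259 lower.

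Lymphatic transcription factors were mostly higher in members. Of 11 tested, 6 were higher and 1 was lower, with a median log2 difference of 0.98 against -0.01 over all genes. Prox1 differed by 4.34 (edgeR, adjusted p = 4.44e-30). Tbx1, a T-box factor needed for lymphatic growth, stood at 365 and 275 CPM in members, at 5.39 and 5.67 in endocardial-rule nuclei and at 11.5 and 8.38 in capillary-rule nuclei, a log2 difference of 5.37 (adjusted p = 5.94e-25). Maf, a basic leucine zipper factor, stood at 1041 and 1604 in members against 67.4 and 64.0 in endocardial-rule and 38.4 and 50.3 in capillary-rule nuclei. Macrophage-like nuclei had as much Maf, at 1173 and 1470 CPM, while the 7 macrophage markers summed to 426 in control members and 619 in PD-1 inhibitor members. In members of the lymphatic-like cluster these markers summed to 440 and 449.

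Nr2f2, which encodes the venous and lymphatic factor COUP-TFII, was higher by 1.63 on the log2 scale, and Sox18, which acts upstream of Prox1, by 0.96. Nfatc1, a factor of valve formation, was higher by 0.98. Gata2 was the 1 factor that was lower, at 65.3 and 82.2 CPM in members against 199 and 228 in endocardial-rule nuclei. Foxc1, Hhex, Zeb1 and Nr2f1 did not pass the test.

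Receptors on the surface of lymphatic endothelium gave the highest share of calls. Of 13 tested, 11 were higher and 2 lower, with a median difference of 1.83. Lyve1 stood at 161 and 186 CPM in endocardial-rule nuclei and at 30.8 and 12.6 in capillary-rule nuclei, below its levels in members above (edgeR, adjusted p = 3.45e-39). Pdpn was higher by 4.82 (edgeR, adjusted p = 5.04e-22). Thy1, a surface glycoprotein that binds leukocyte integrins, stood at 403 and 657 CPM in members against 7.19 and 7.29 in endocardial-rule nuclei, a difference of 5.16. T cell-like nuclei had as much Thy1, at 496 (416 to 586) and 751 (641 to 875) CPM. The scavenger receptors Stab1 and Stab2 were higher by 1.83 and 5.92. Stab2 rested on few nuclei, with 33 UMIs in 6.28% of control members and 13 UMIs in 3.42% of PD-1 inhibitor members. Clec14a, a C-type lectin of blood vessels, was lower, at 7.68 and 38.7 CPM in members against 131 and 177 in endocardial-rule nuclei. Cd44 was lower by 2.06, with 7.68 and 9.67 CPM in members.

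In the VEGF-C pathway, the coreceptor gene Nrp2 was higher, the blood endothelial receptor VEGFR-1 was lower, and 13 genes did not pass the test. Of 22 genes tested, 6 were higher and 3 lower, and the median difference was 0.08. Nrp2, the coreceptor of VEGFR-3, stood at 1187 and 1348 CPM in members and was higher by 1.71. Itga9, an integrin of lymphatic valves, was higher by 1.41. Flt1, the blood endothelial receptor VEGFR-1, stood at 99.8 and 53.2 CPM in members, at 895 and 781 in endocardial-rule nuclei and at 1723 and 1378 in capillary-rule nuclei, a log2 difference of -3.89 (edgeR, adjusted p = 1.60e-28). Kdr, which encodes VEGFR-2, did not pass the test, at 626 and 619 CPM in members.

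Vegfc, which encodes the ligand of VEGFR-3, was near 0 in members. It had 3 UMIs in control members and 0 in PD-1 inhibitor members. In the PD-1 inhibitor library it was at least 36.1-fold lower than in capillary-rule nuclei, where it had 125 UMIs, taking a floor of 3 UMIs per library. In the control library it was 37.7-fold lower than in capillary-rule nuclei, where it had 113 UMIs, with an interval of 12.6 to 186. The semaphorins Sema3d, Sema3a and Sema3f, guidance ligands of neuropilins, were higher in members by 4.58, 3.13 and 1.85. Sema3d stood at 760 and 836 CPM in members and at 93.8 and 129 in all other nuclei. Mesothelial-like nuclei had as much Sema3d as members, at 834 (773 to 898) and 880 (825 to 937) CPM.

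Genes of leukocyte traffic differed in both directions. Of 15 tested, 7 were higher and 4 lower, with a median difference of -0.09. Fgl2, which encodes a secreted protein that dampens immune cells, stood at 1690 and 2093 CPM in members, and was higher by 4.91 (edgeR, adjusted p = 9.63e-42). Ackr2, a decoy receptor that removes inflammatory chemokines, stood at 173 and 256, and Il7, a cytokine that keeps T cells alive, at 219 and 174. Nts, the neuropeptide neurotensin, was higher by 3.04, and Spns2, which exports sphingosine-1-phosphate, by 1.86. The adhesion molecules Vcam1 and Icam1, by which leukocytes leave blood vessels, were lower by 2.68 and 1.32 on the log2 scale, and Cxcl12 and Csf1 were lower by 1.66 and 1.61. Cd274, which encodes the PD-1 ligand PD-L1, had 30.7 and 19.3 CPM in members and did not pass the test.

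Genes of lymphatic valves and flow sensing were mostly not called. Of 16 tested, 4 were higher, 2 were lower and 10 did not pass. Among the higher genes, Gja1 (connexin 43), Celsr1, a planar polarity receptor of valve cells, and Angpt2, a ligand of the receptor Tie2, differed by 2.00, 3.74 and 2.42. Eng and Tek were lower, by 1.48 and 0.75.

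Lipid handling genes of capillaries were low in members. Of 12 tested, 6 were lower and 3 higher, with a median difference of -0.33. The fatty acid carriers Fabp4 and Cd36 stood at 280 and 290 CPM for Fabp4 and at 250 and 203 for Cd36. In capillary-rule nuclei Fabp4 stood at 3299 and 5522 and Cd36 at 3161 and 3645. Fabp5 was lower by 4.05 on the log2 scale. Gpihbp1, which holds lipoprotein lipase on capillaries, was higher in members than in the mean of both kinds by 1.07, but its level of 334 and 367 lay below the 558 and 888 of capillary-rule nuclei. Abca1, a cholesterol exporter, was higher by 1.97.

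**Figure D3:**
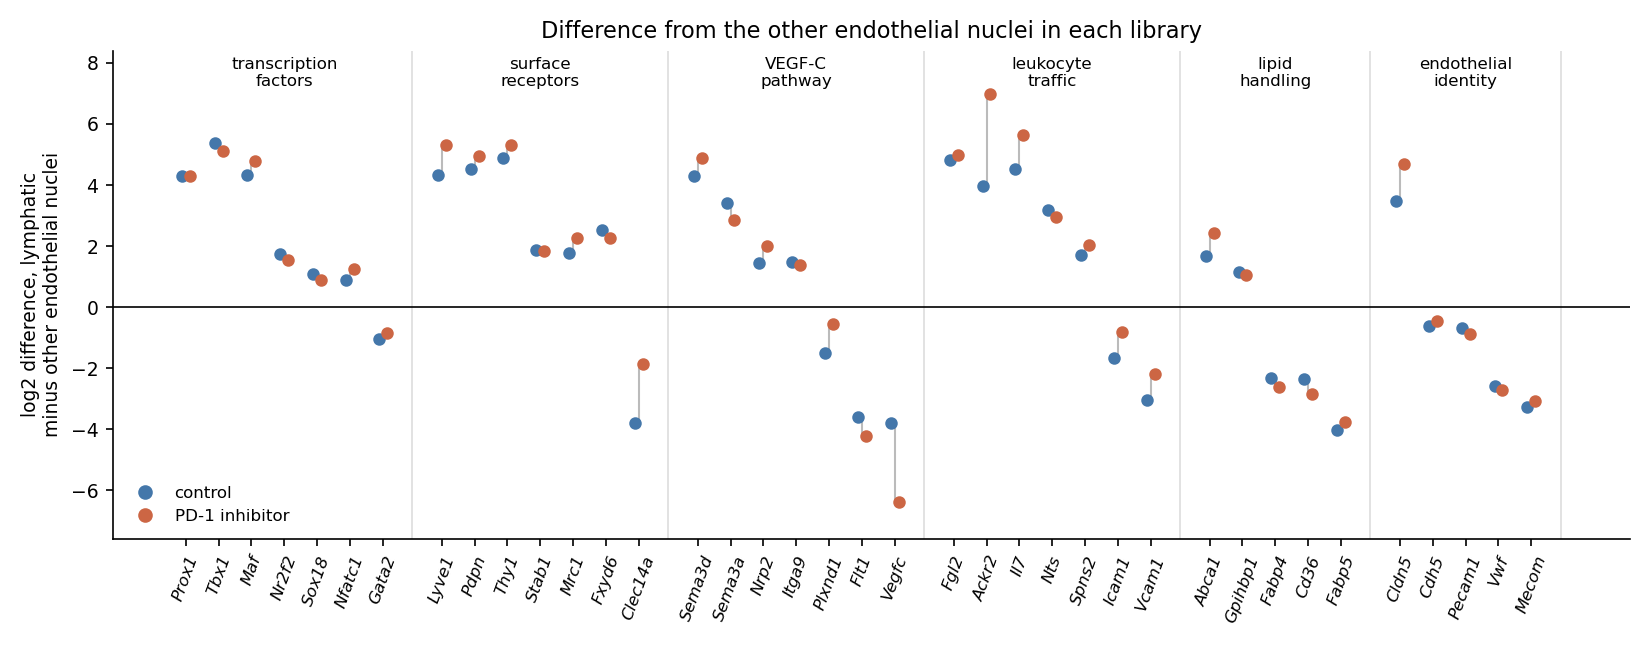
Log2 difference between members and the mean of endocardial-rule and capillary-rule nuclei (y axis) for genes of 6 lists (x axis), computed within each library with 0.5 UMI added to each sum. Blue points are the control library and orange points the PD-1 inhibitor library; all genes shown passed the edgeR test, and both libraries lie on the same side of 0 for each, with Vegfc resting on 3 and 0 UMIs in members.

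General endothelial genes were lower in members as a group. Of 14 tested, 9 were lower and 1 was higher, with a median difference of -0.73. Pecam1 was lower by 0.79 and Cdh5 by 0.55, and both stayed well detected, at 810 and 686 and at 415 and 469 CPM. Vwf, the clotting factor carrier of blood endothelium, stood at 88.3 and 67.7 against 1597 and 1931 in endocardial-rule nuclei. Mecom was lower by 3.24. Cldn5, a tight junction protein, was the 1 gene that was higher, at 568 and 749 CPM against 18.9 and 12.2 in endocardial-rule nuclei. It was not particular to members, as arterial endothelial-like nuclei had 749 (606 to 914) and 897 (729 to 1092).

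Genes of the TGF-beta and BMP pathway differed in both directions. Of 21 tested, 7 were higher and 8 lower, with a median of -0.16. The ligands Tgfb2 and Tgfb3 were higher by 2.32 and 2.69, the receptor Tgfbr2 by 1.78 and the transducer Smad1 by 1.58. The inhibitors Smad6 and Smad7 were lower by 2.71 and 3.31 on the log2 scale, the ligand Bmp6 by 1.78, and the BMP targets Id1, Id2 and Id3 by 1.12, 2.03 and 1.09. Smad7 stood at 30.7 and 14.5 CPM in members and at 328 and 419 in endocardial-rule nuclei.

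Secreted and matrix genes were more often higher than lower, at 7 and 3 of 19 tested. Igfbp5, a binding protein of insulin-like growth factors, reached 2841 and 4431 CPM and was higher by 1.89. Cp, the copper carrier ceruloplasmin, was higher by 2.67, Timp3, a metalloproteinase inhibitor, by 1.94, Sned1 by 3.61 and Lrg1, a secreted glycoprotein that acts on TGF-beta signalling, by 3.94. Lama4, a laminin of vessel walls, was higher by 1.26. Hspg2 and Apoe were lower by 1.26 and 1.78.

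In the remaining lists the calls are read against the 6.91% of all genes that were higher and the 5.01% that were lower. For the endothelial-to-mesenchymal transition, Vim and Snai1 were higher and Zeb2 was lower, of 8 tested. For focal adhesion and adherens junctions 3 of 20 were higher and 5 lower. For the circadian clock 2 of 14 were higher and 1 was lower, for glucocorticoid and stress response 1 of 12 and 2, and for oxidative stress defence 1 of 14 and 2. Of 17 immediate early genes 2 were lower, and of 23 genes of oxidative phosphorylation 2 were lower. Of 18 interferon and antigen presentation genes edgeR called none and DESeq2 called none, while 7 had an unadjusted p under 0.05.

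The 12 genes with the largest positive difference, of those with 50 UMIs in members, were Scn3a, A830019P07Rik, Htr2b, Ripor3, Pld5, Fbxl2, Fgf12, Tc2n, Mfsd4a, Lcn2, Apba2 and Dtx1. Several of them, Scn3a and Htr2b included, had 0 UMIs in capillary-rule nuclei of both libraries. Their fitted differences are therefore no bounds, and the order rests in part on zeros. Scn3a, a voltage-gated sodium channel, had 430 and 261 CPM in members, 4.49 and 3.24 in endocardial-rule nuclei and 0 in capillary-rule nuclei. Htr2b, a serotonin receptor, had 250 and 324 in members and 2.91 and 1.69 in all other nuclei, so that members stood 85.8-fold (56.5 to 132) and 191-fold (112 to 342) higher. Lcn2, the iron-siderophore carrier lipocalin-2, had 246 and 338 in members and 2.20 and 4.42 in all other nuclei. Tc2n had 315 and 416 in members and 5.19 and 4.52 in all other nuclei.

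The 12 genes with the largest negative difference were Gda, Cxxc4, Samd5, Hdc, Ttll7, Col25a1, Acot11, Rhpn2, B630019A10Rik, Mrap, Sost and Hbegf. All 12 had 0 UMIs in members of both libraries, so the fitted differences are no bounds. Sost, an inhibitor of Wnt signalling, was at least 8.89-fold and 8.49-fold lower than in endocardial-rule nuclei, where it had 114 and 152 UMIs. Samd5 was at least 14.7-fold and 4.33-fold lower than in capillary-rule nuclei. Gda, the guanine deaminase, was at least 7.01-fold and 4.62-fold lower there.

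Against all other nuclei, which hold every cell type of the heart, 207 of 13720 genes were at least 4-fold higher in members in both libraries, 1.51%, and 488 were at least 4-fold lower, 3.56%. Among the lists, 8 of 13 surface receptors, 5 of 11 measured transcription factors and 5 of 16 measured leukocyte traffic genes were at least 4-fold higher in both. Il7 stood at 219 and 174 CPM in members and at 5.42 and 3.48 in all other nuclei, 40.4-fold (27.9 to 58.2) higher in controls. Tbx1 was 56.6-fold (41.7 to 77.0) and 61.0-fold (40.8 to 91.5) higher. Of the other genes of the lists, Ackr2, Nts and Cldn5 also passed this size in both libraries. All other nuclei pool many kinds, and in arterial endothelial-like nuclei Cldn5 stood at 749 and 897 CPM.

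Members were also split by Lyve1. In the lymphatic-like cluster, 83 of 184 control and 80 of 134 PD-1 inhibitor members had a Lyve1 UMI after thinning each nucleus to 500 UMIs. Those without one still had 501 and 632 CPM of Lyve1 in their full counts. The split therefore holds sampling of few UMIs, and how much of it is sampling was not tested. Prox1 stood at 875 CPM in control members with a Lyve1 UMI and at 676 in those without, and at 784 and 686 after PD-1 inhibitor. These intervals overlapped in both libraries (702 to 1078 and 537 to 841, 627 to 968 and 510 to 905). Sema3d stood at 567 with a Lyve1 UMI and 969 without in controls, and at 766 and 1153 after PD-1 inhibitor. The Sema3d intervals did not overlap in controls (429 to 734 and 800 to 1162) and overlapped after PD-1 inhibitor (611 to 948 and 920 to 1428). Sema3a did not keep its direction, at 447 with a Lyve1 UMI and 660 without in controls, and at 492 and 343 after PD-1 inhibitor. Further genes were looked at in the same way. Among them, Thy1 and Stab1 had intervals apart in controls only, and Fgl2 and Igfbp5 after PD-1 inhibitor only. This split was chosen after seeing the data.

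A difference in the share of members among all nuclei was not detectable at this depth. Members made up 2.05% (exact Clopper-Pearson 1.78 to 2.34) of control nuclei and 1.84% (1.55 to 2.16) of PD-1 inhibitor nuclei, a ratio of 0.897 (0.721 to 1.11). Among all nuclei of the 3 endothelial kinds, they made up 15.8% (13.9 to 17.9) of 1308 nuclei and 11.1% (9.45 to 12.9) of 1316, a ratio of 0.701 (0.563 to 0.871). The denominator moved between these views, as endocardial-rule nuclei numbered 893 and 982 and capillary-rule nuclei 208 and 188.

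Within members, 2379 genes outside the rule had at least 50 UMIs in both libraries together. Their median log2 ratio of PD-1 inhibitor over control was -0.03. At least 2-fold higher in the PD-1 inhibitor library were 55 genes, 2.31%, and at least 2-fold lower 63, 2.65%. The counting interval lay above 0 for 231 genes, 9.71%, and below 0 for 239, about as many. In members of the lymphatic-like cluster only, 41 of the 55 and 52 of the 63 kept this size. In the other endothelial nuclei, which have more UMIs, 12 and 21 of the 2379 genes passed it. The lymphatic nuclei and the other nuclei come from the same libraries, so their ratios are not independent.

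Lymphatic receptors and secreted proteins differed between the libraries in both directions. Of 10 measured surface receptors, the interval lay above 0 for 2, Lyve1 and Thy1, and below 0 for 2, Stab1 and Rassf9. Of 16 secreted and matrix genes it lay above 0 for 7 and below 0 for 2, Lama4 and Lamc1. Lyve1 had a log2 ratio of 0.52 (0.31 to 0.72), and of 0.50 in the lymphatic-like cluster only. A UMI of Lyve1 was found in 56.0% (49.0 to 62.9) of control members and 74.0% (66.1 to 80.9) of PD-1 inhibitor members, and after thinning to 500 UMIs in 41.1% and 55.5%. In all other nuclei its log2 ratio was 0.49, and their shares were 6.03% and 7.83%. Thy1 had a ratio of 0.70 (0.33 to 1.09), and in T cell-like nuclei it stood at 496 and 751 CPM. Igfbp5 had a ratio of 0.64 (0.50 to 0.78). Stab1 stood at 1217 and 1000 CPM, a ratio of -0.28 (-0.54 to -0.026), and Rassf9 at 388 and 271, a ratio of -0.51 (-1.02 to -0.034). Lama4 had a ratio of -0.38 (-0.61 to -0.16). The transcription factor Maf had a ratio of 0.62 (0.39 to 0.86). In other endothelial nuclei the interval for Maf spanned 0, and Igfbp5 stood at 0.13 (0.038 to 0.21). In macrophage-like nuclei, which also carry Maf, it stood at 1173 and 1470 CPM. Prox1 had a ratio of -0.04 (-0.37 to 0.29). The rule genes Flt4 and Mmrn1 had ratios of 0.05 and 0.14, and Reln stood at 1889 and 1701 CPM. Members of each library were chosen by these genes, so their values describe the choice and are not read as a result.

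Among named genes with the highest ratios, Lrg1, Ddit4, Uqcrb and Rps26 had UMIs in 37, 28, 23 and 24 PD-1 inhibitor members. The most in 1 of these nuclei was 11, 6, 9 and 4 UMIs. Lrg1 had 32 UMIs in 24 control members and 74 in 37 PD-1 inhibitor members, a level of 123 against 358 CPM and a log2 ratio of 1.53 (0.92 to 2.19). Its ratio was 1.39 (0.77 to 2.07) in the lymphatic-like cluster only and 0.51 (-0.04 to 1.08) in other endothelial nuclei. Ddit4, a stress-induced inhibitor of mTOR, had 14 and 47 UMIs and a ratio of 2.04 (1.19 to 3.05), and 0.61 (0.17 to 1.06) in other endothelial nuclei. Uqcrb, a subunit of respiratory complex III, had 21 and 51 UMIs and a ratio of 1.59 (0.85 to 2.42). Rps26, a ribosomal protein gene with related copies in the genome, had 13 and 37 UMIs and a ratio of 1.81. Ndufs3, of complex I, had 17 and 38 UMIs and a ratio of 1.47, which was 1.01 in the cluster only.

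Other high ratios rested in larger part on single nuclei. H2-Aa, a subunit of the class II molecules that present antigen, had 17 UMIs in control members and 57 in PD-1 inhibitor members, a ratio of 2.05 (1.27 to 2.95). Of the 57, 19 lay in 1 member of the macrophage-like cluster, and in the lymphatic-like cluster only the counts were 15 and 28 and the ratio was 1.15 (0.22 to 2.18). Cd74, the invariant chain of class II, had 59 and 127 UMIs, of which 1 member of the macrophage-like cluster held 49. In the lymphatic-like cluster only, Cd74 had 48 and 49 UMIs, a ratio of 0.30 (-0.30 to 0.91). Fmo2 had 31 of its 64 PD-1 inhibitor UMIs in 1 member of the mesothelial-like cluster, and its ratio of 1.46 was 0.42 (-0.37 to 1.21) in the lymphatic-like cluster only. Fancc had 21 of 37 UMIs in 1 nucleus of the lymphatic-like cluster.

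Among the lowest ratios, Pparg, Gas7 and Ccn1 kept their size in the lymphatic-like cluster. Pparg, a nuclear receptor that controls lipid genes, had 49 UMIs in 31 control members and 12 in 10 PD-1 inhibitor members, a ratio of -1.65 (-2.74 to -0.77). It was -1.65 in the cluster only and -1.29 (-1.67 to -0.93) in other endothelial nuclei. Ccn1, a matrix protein gene of the immediate early class, had 84 and 14 UMIs and a ratio of -2.21 (-3.18 to -1.43), against -3.13 (-3.44 to -2.85) in other endothelial nuclei. Gas7 had 48 and 11 UMIs and a ratio of -1.74, against -0.20 in other endothelial nuclei, where the interval spanned 0. The long noncoding RNA 4933406I18Rik had 42 and 11 UMIs.

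Zeb2, a repressor linked to mesenchymal transition, had 49 UMIs in control members and 7 in PD-1 inhibitor members, a ratio of -2.39 (-3.86 to -1.33). Of the 49, 16 lay in the 6 control members of the glial-like cluster, and in the lymphatic-like cluster only Zeb2 had 25 and 5 UMIs, a ratio of -1.94 (-3.79 to -0.64). Csmd1 turned its sign without these members, as 54 of its 57 control UMIs lay in the glial-like cluster. The ratio of -1.76 in all members was 2.11 (0.38 to 4.74) in the lymphatic-like cluster only, on 3 and 12 UMIs. Of the 13 Csmd1 UMIs in PD-1 inhibitor members, 10 lay in 1 nucleus of that cluster, so this ratio rested largely on 1 nucleus. Fhl2, a cofactor abundant in heart muscle, had 92 of 176 control UMIs in 1 member of a cardiomyocyte-like cluster. Its ratio was -1.66 in all members and -1.40 (-2.34 to -0.60) in the lymphatic-like cluster only, and -0.50 without Scrublet doublets. Magi2 had a ratio of -1.75 in all members and -1.18 (-2.73 to 0.06) there.

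**Figure D4:**
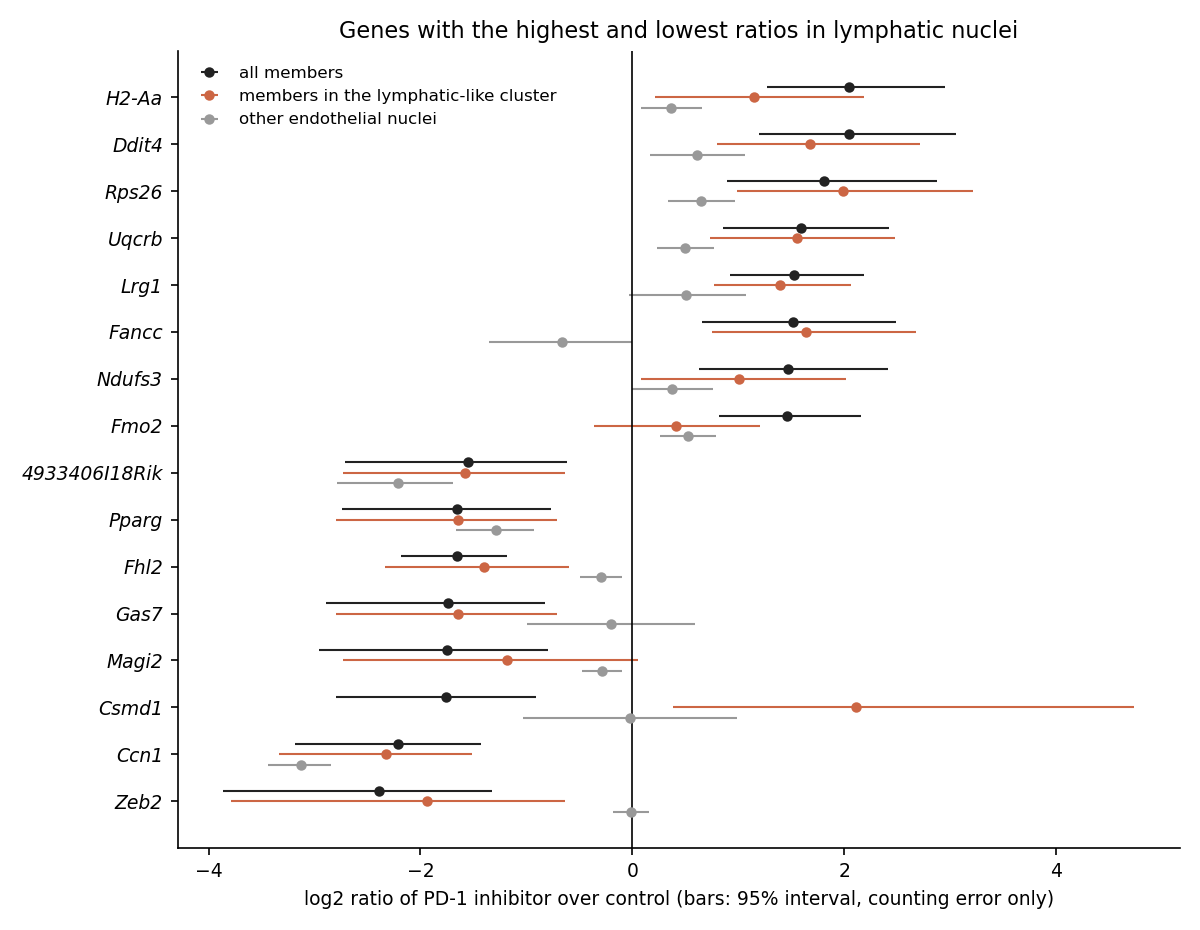
Log2 ratio of PD-1 inhibitor over control (x axis) for the 8 genes with the highest and the 8 with the lowest ratio in members (y axis). Black points are all members, orange points are members of the lymphatic-like cluster only and grey points are other endothelial nuclei. Bars are 95% intervals for counting error. Csmd1 changes sign between all members (-1.76) and the cluster (2.11), where 1 nucleus holds 10 of its PD-1 inhibitor UMIs.

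Genes of the respiratory chain encoded in the nucleus stood apart among the lists. Of 24 genes, 15 had 50 UMIs in members, all 15 had a ratio above 0, 10 had an interval above 0, and 5 were at least 2-fold higher in the PD-1 inhibitor library. Their median was 0.76, against -0.03 over all genes, and 0.78 in the lymphatic-like cluster only. The 5 were Uqcrb, Cox5a, Sdhb, Uqcrc1 and Atp5j2, with Cox5a at 169 and 377 CPM. In other endothelial nuclei the median of these 15 genes was 0.48, and in all other nuclei it was 0.38. The 2 other endothelial kinds differed in the summed level of the 24 genes. Its ratio was 0.81 (0.70 to 0.91) in capillary-rule nuclei and 0.44 (0.38 to 0.50) in endocardial-rule nuclei, against 0.67 (0.55 to 0.80) in members. Higher ratios were therefore not particular to members. When nuclei were thinned to 500 UMIs the median over the fewer genes left was 0.053.

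Gene length moved with the ratio, as did the ribosomal protein genes. The 476 shortest genes, with spans of up to 17.1 kb, had a median ratio of 0.29 in members and 0.22 in other endothelial nuclei, and the 476 longest had -0.22 and -0.24. The 15 respiratory chain genes had a median span of 8.37 kb. Ribosomal protein genes summed to 5844 and 7983 CPM in members, a ratio of 0.45 (0.35 to 0.55), and mitochondrially encoded genes to 11965 and 13497. The part of these shifts in the list medians was not tested.

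**Figure D5:**
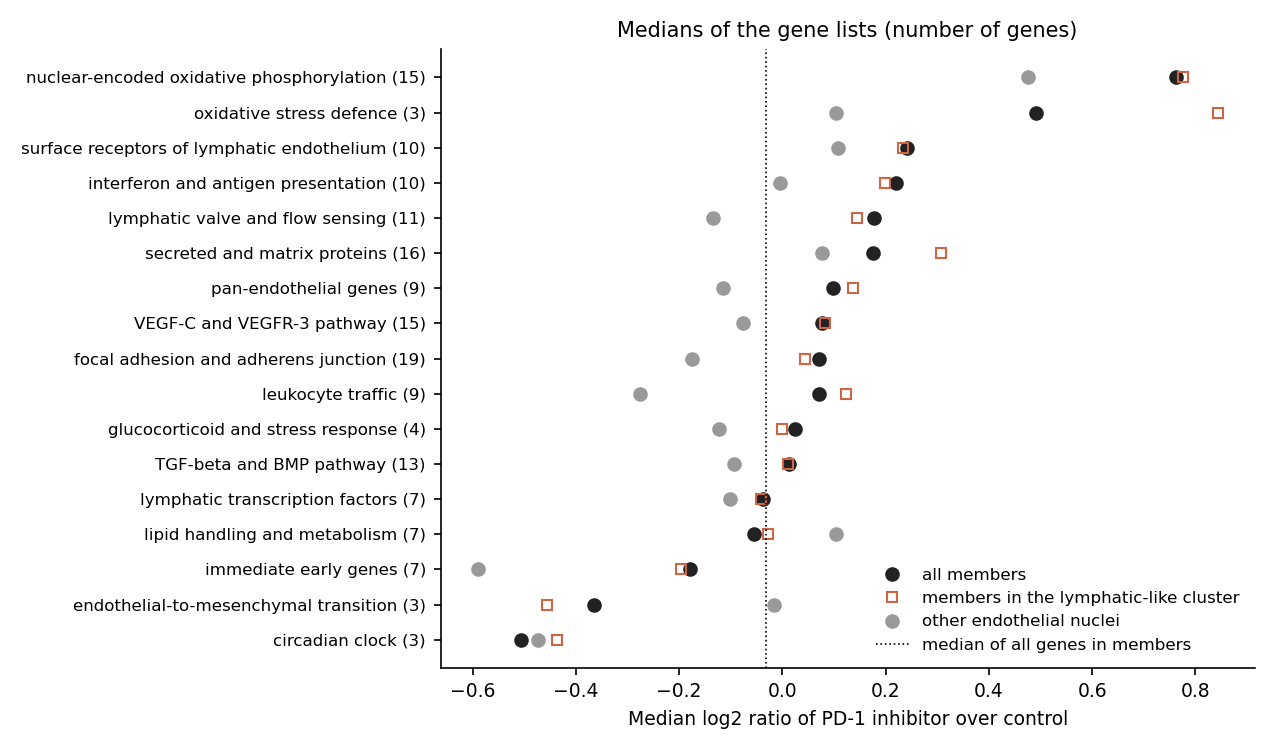
Median log2 ratio of PD-1 inhibitor over control (x axis) of each list with at least 3 measured genes (y axis, number of genes in parentheses) in all members, in members of the lymphatic-like cluster and in other endothelial nuclei. The dotted line is the median of all 2379 genes in members (-0.03); the list of nuclear-encoded oxidative phosphorylation genes lies highest for all members, at 0.76, and the 3 genes of oxidative stress defence lie highest in the lymphatic-like cluster.

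The remaining lists had medians between -0.51 and 0.49. Surface receptors had a median of 0.24 over 10 genes, none past 2-fold, and interferon and antigen presentation 0.22 over 10 genes, with H2-Aa and Cd74 past 2-fold in all members. In secreted and matrix genes Lrg1 and Emilin1 were past 2-fold higher, and Lamc1 had a ratio of -0.93 (-1.53 to -0.38). In the VEGF-C pathway, Plxnd1, a semaphorin receptor, had a ratio of 0.92 (0.32 to 1.55), and Ramp2, part of the adrenomedullin receptor that lymphatic growth needs, of 0.86 (0.44 to 1.30). In lipid handling, Pparg and Apold1 were past 2-fold lower, Apold1 at 553 against 271 CPM. Klf6 had a ratio of 1.03 (0.54 to 1.54) in members and 0.01 (-0.24 to 0.27) in other endothelial nuclei.

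Immediate early genes, which tissue handling induces quickly, had lower summed levels after PD-1 inhibitor in members, in endocardial-rule nuclei and in all other nuclei. The sum was 2277 and 1798 CPM in members, a ratio of -0.34 (-0.53 to -0.15). In endocardial-rule nuclei it was 4051 and 1337, and in capillary-rule nuclei 2342 and 2170, where the interval of the ratio spanned 0. In all other nuclei it was 2372 and 1397, a ratio of -0.76 (-0.79 to -0.74). The clock genes measured in members, Clock, Rora and Bhlhe40, had ratios of -0.51, -0.78 and -0.26, and the time of harvest of each group is not given in the sources used here.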

How the data were processed

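Single-nucleus RNA-seq libraries were made by the authors with the GEXSCOPE kit, and they deposited 1 matrix of whole-number UMI counts per library, without normalization. The submitters' notes name GRCm38 and mm10; the aligner, the counting software and the calling of nuclei are not given in the sources used here. The members and gene lists were chosen with earlier results of these data known. Nuclei above 20% mitochondrial UMIs were left out, with no other filter. Levels are summed UMIs as CPM, scaled to one common total, with exact Poisson intervals, shares have Clopper-Pearson intervals, and log2 ratios have 0.5 UMI added and exact binomial intervals. Intervals are at 95%; a sum of 0 is given with a floor of 3 UMIs per library.

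The endothelial comparison used edgeR 4.0.16 (TMM, library block, 30 UMIs over 6 sums, rule genes left out). In simulated data on 10743 genes of this comparison, 42% of 2-fold and 98% of 4-fold genes were called, and 2.10% of calls were unchanged genes. The simulation gave all genes the same spread, had no difference by treatment, and changed genes only upward in lymphatic sums. These rates therefore need not hold for the real counts. Clusters came from scanpy 1.11.5 (2000 variable genes, 30 components, 15 neighbours, Leiden resolution 1) and took the name of the fixed markers they detected. Doublets were called with Scrublet and kept. Named were genes of the lists, the 12 largest differences in each direction among called genes with 50 UMIs, and the 8 highest and lowest ratios between libraries. Coordinates are from GENCODE vM21, which matched 32445 of 32589 gene IDs. Alternatives were RLE factors, DESeq2 1.42.0, other minimum counts, thinning, means over nuclei, another total, other limits of the rule, other resolutions and doublets left out. Values in the lymphatic-like cluster only and without glial-like members were added after seeing the data. The labels name no batch or replicate number. The values of 1 listed gene are not reported here.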

Additional observations from a re-analysis of the deposited data

Results flagged for a closer look

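For 3 named or listed genes, the ratio of PD-1 inhibitor over control lay on opposite sides of 0 in members and in other endothelial nuclei, with both counting intervals apart from 0. The differences themselves were not tested, since each condition has 1 library. Fancc, a gene of DNA repair, had a log2 ratio of 1.52 (0.66 to 2.49) in members and -0.66 (-1.35 to -0.0053) in other endothelial nuclei, and 21 of its 37 PD-1 inhibitor UMIs lay in 1 nucleus. Itga1, an integrin that binds collagen, had 0.69 (0.06 to 1.35) in members and -0.43 (-0.67 to -0.20) in other endothelial nuclei, and in members of the lymphatic-like cluster only its interval reached below 0, at 0.47 (-0.23 to 1.18). Cldn5 had 0.40 (0.06 to 0.73) in members, on 148 and 155 UMIs, and -0.94 (-1.64 to -0.30) in other endothelial nuclei, on 56 and 31 UMIs. In the lymphatic-like cluster only, Cldn5 had 0.34, and its interval reached just below 0. The other endothelial nuclei here are endocardial-rule and capillary-rule nuclei and do not stand for all endothelium. In arterial endothelial-like nuclei Cldn5 stood at 749 (606 to 914) CPM in controls and 897 (729 to 1092) after PD-1 inhibitor, and these intervals overlap.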

How the results depend on the processing

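No paired analysis was possible because each condition has 1 library and the labels carry no replicate numbers. The counts of genes that differed from other endothelial nuclei stayed within 1.5 times of 741 and 537 under all alternatives but DESeq2, with 403 higher and 259 lower; all of its 662 calls were also called by edgeR. With the difference of 1 library alone, 738 to 741 of the higher and 536 to 537 of the lower genes kept their sign. The genes were called on both libraries together, so this agreement largely follows from the calling and is no separate support. Genes at least 4-fold lower than in all other nuclei, 488, numbered 253 after thinning to 500 UMIs and 761 with members of the lymphatic-like cluster only. The ratio of the shares of members was 0.701 with the 3 endothelial kinds as denominator.

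Genes past 2-fold between the libraries, 55 and 63, numbered 331 and 351 with a minimum of 20 UMIs, and 7 and 15 after thinning, where fewer genes were measured. List medians that moved are as follows; each is over the genes that reach the minimum of UMIs under that alternative, so the genes behind a median can differ from those in the report, and the cause was not tested further. With a minimum of 20 UMIs, secreted and matrix proteins had 0.36 and immediate early genes -0.44. With means over nuclei, the VEGF-C pathway had 0.20, lipid handling 0.23, immediate early genes -0.38 and focal adhesion -0.11. After thinning, the VEGF-C pathway had 0.18, lipid handling 0.56, immediate early genes -0.87, the clock -1.16, oxidative phosphorylation 0.053, glucocorticoid response 0.60 and focal adhesion -0.049. Without doublets, secreted proteins had 0.040, mesenchymal transition -0.14 and glucocorticoid response -0.23. With at most 5% mitochondrial UMIs, interferon genes had 0.32 and oxidative phosphorylation 1.02. With at least 5 UMIs of the rule genes, leukocyte traffic turned from 0.071 to -0.069, and secreted proteins had 0.32, mesenchymal transition -0.031, the TGF-beta pathway 0.21 and glucocorticoid response -0.30. With at least 2, secreted proteins had 0.32, mesenchymal transition -0.15 and immediate early genes -0.43. In the lymphatic-like cluster only, mesenchymal transition had -0.14, where Zeb2 fell under the minimum, and glucocorticoid response -0.25, where Tsc22d3 did; over the genes measured in all members, mesenchymal transition had -0.46. Without members of the glial-like cluster mesenchymal transition had -0.12. Of the 13 Csmd1 UMIs in PD-1 inhibitor members, 10 lay in 1 nucleus. Its ratio turned to 0.34 with at least 5 UMIs of the rule genes. It turned to 2.11 in the lymphatic-like cluster only and to 2.24 without members of the glial-like cluster. The last 2 alternatives were added after seeing the data. Between 90.1% and 91.8% of members lay in 1 cluster at each resolution and without doublets.

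Ratios between libraries were computed for genes with at least 50 UMIs in members, and a shift between hearts cannot be told apart from one between treatments.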
